A study of Mus musculus with 31 samples.

Results

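Accessible chromatin was described at 10 imprinted mouse genes, H19, Igf2, Igf2r, Peg3, Mest, Snrpn, Meg3, Peg10, Plagl1 and Grb10, and at the regions that control their imprinting. The genes were taken by name from the GENCODE annotation of mm10, where each matched 1 gene among 32093 protein-coding and lncRNA genes. ATAC-seq peaks were then counted near any annotated transcription start site (TSS; up to 1 kb away), in the gene body and within 25 kb of the gene. This gave 21 of the 63456 peaks in the list.

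The study asked how the binding of transcription factors (TFs) to mitotic chromosomes relates to their behaviour in interphase, and measured accessibility by ATAC-seq in NIH-3T3 cells, a line of mouse embryonic fibroblasts. The series has 31 samples: 13 TFs in 2 replicates each, 4 samples with rtTA3G alone and 1 library of the parental line. Only the peak list of the parental library, labelled WT, was analysed here. These cells carry no TF transgene, and their labels list no doxycycline, whereas the TF samples had 500 ng per ml for 48 h. The paper's methods describe doxycycline for NIH-3T3 cells in ATAC-seq without excepting the parental line, so its treatment is uncertain. Per the labels, 50000 cells were treated with 0.5 µM Tn5 transposase, which cuts DNA not covered by nucleosomes, and the library was amplified for 12 PCR cycles. With 1 library there are no replicates, so the values are a description, and the intervals below are 95% Poisson intervals that cover counting error only.

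In genomic imprinting a gene is expressed mainly from the copy inherited from 1 parent. The choice is set by a control region that receives DNA methylation in only the egg or only the sperm and keeps it on that parental copy after fertilisation. ZFP57, a zinc finger protein that reads a short methylated motif, helps to keep this methylation in the early embryo, and CTCF binds the unmethylated control region of H19 and Igf2. Reads of the 2 parental copies were not separated in the peak list, so each value below sums over all copies present. How many copies of each locus these cells carried, and whether the imprints were kept, was not measured.

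The cell type was checked against marker genes. All 11 fibroblast markers examined had a peak within 1 kb of a TSS. Their strongest promoter peaks had fold enrichments from 3.41 at Thy1 to 10.5 at Fn1, with 5.83 at Col1a1, 6.62 at Vim and 10.1 at Twist1, and the Thy1 peak lay 205 bp beyond the 3' end of the gene. No such peak was found for 3 of 3 blood, 3 of 3 neuronal, 3 of 3 hepatocyte and 2 of 2 pluripotency markers. Of the 4 epithelial markers 1 had one, Krt8 with a fold enrichment of 3.25. Of the 3 endothelial markers 2 had one, Pecam1 with 8.40 and Cdh5 with 12.8, which was above every fibroblast marker examined. These Pecam1 and Cdh5 peaks lay inside the gene, more than 1 kb from its own 5' end, as did the strongest promoter peak of the fibroblast marker Pdgfra.

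The imprinted genes fell into 2 sets. Igf2r, Peg3, Plagl1 and Grb10 had peaks, whereas H19, Igf2, Mest, Snrpn, Meg3 and Peg10 had none in the gene or within 25 kb. A promoter peak, meaning one within 1 kb of a TSS, was present for 4 of 10 genes, against 44.3% of all genes. With only peaks of a fold enrichment of at least 5 the count was 2 of 10 against 39.5%, and with only the gene's own 5' end in place of every TSS it was 1 of 10 against 40.6%. A peak in the gene body was present for 4 of 10 against 54.5%. Including 25 kb on either side left the count at 4 of 10, against 76.8% of all genes. All members but H19 and Meg3 are protein-coding, and the shares of all genes include lncRNA genes. A promoter peak was present for 53.7% of protein-coding and 23.9% of lncRNA genes. Of protein-coding genes 19.9% had no peak within 25 kb. Fewer genes were without a peak over longer distances, which were chosen after the values were seen, with 4 of 10 within 50 kb against 17.9% of all genes and 2 of 10 within 100 kb against 13.2%. Of the 4 members expressed mainly from the maternal copy, H19, Meg3, Igf2r and Grb10, 2 had no peak within 25 kb, and of the 6 expressed mainly from the paternal copy 4 had none.

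**Figure D1:**
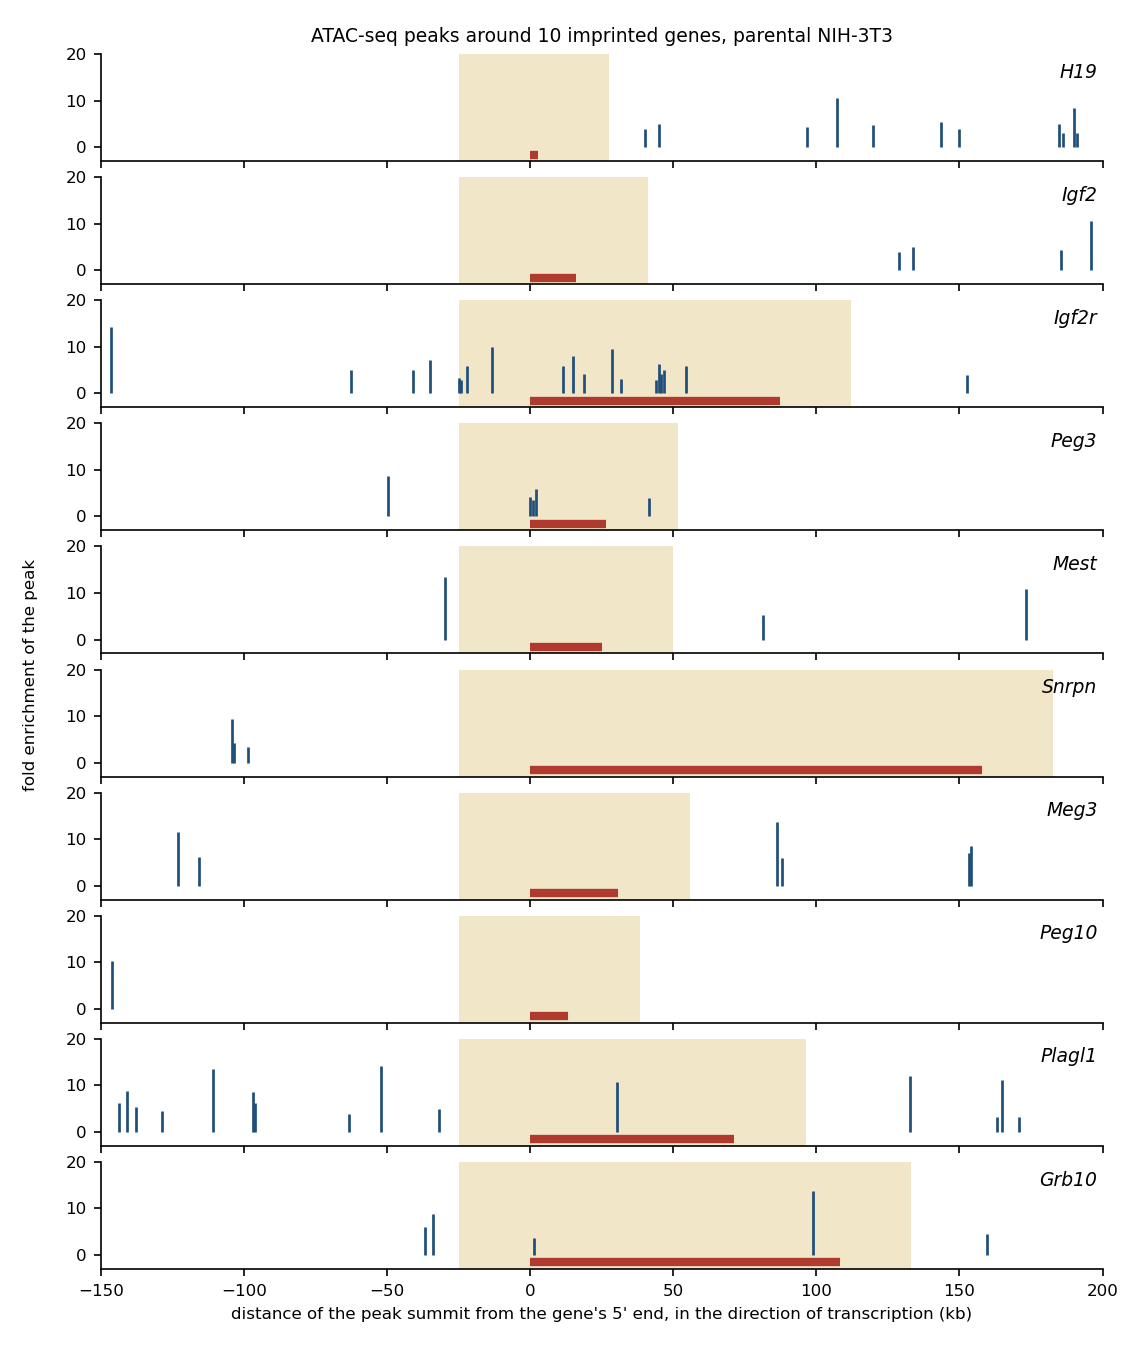
Peaks around the 10 genes by distance of the summit from the 5' end of the gene in kb, with the fold enrichment of each peak as the height of its line. Red bars are the genes and shaded areas reach 25 kb beyond them; 6 of the 10 shaded areas hold no peak and that of Igf2r holds 14.

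The fold enrichment deposited for a peak is the number of fragments over its summit divided by the local expected number, each with 1 added. Solving it together with the deposited −log10 p returned a whole number of fragments for 63449 of 63456 peaks, within 0.001 of the −log10 p. The median peak had 29 fragments at its summit (quartiles 19 and 52). The expected number equalled the genome background of 2.81 fragments at 26.3% of the peaks, and there the weakest peak had 10 fragments. The paper's methods give a range of sequenced reads for all samples, but not the number of fragments kept for this library. A site without a listed peak has no value. Peaks may also have been dropped after calling, so too few fragments and a dropped peak cannot be told apart at such a site.

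Plagl1, a zinc finger transcription factor expressed from the paternal copy, had 1 peak, at chr10:13090470-13091139. It covered the main cluster of 8 annotated starts, 30331 bp downstream of the most distal annotated start, and its summit lay in an exon. The summit had 42 fragments (30.3 to 56.8), a fold enrichment of 10.7 (7.78 to 14.4) and a −log10 q of 30.5. Among the 15278 peaks within 1 kb of a TSS of any gene, 70.2% had a fold enrichment no higher than this, whereas 41.2% had no more fragments at the summit. The expected number here was 3.02.

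Peg3, a zinc finger protein, shares its start region with Usp29, which is transcribed the other way. Of its 4 peaks, 3 lay within a stretch at the 5' end. The peak over the start, chr7:6730274-6730558, had 66 fragments (51.0 to 84.0), a fold enrichment of 4.24 (3.29 to 5.37) and a −log10 q of 19.8. The next, chr7:6729479-6729710, had 57 fragments and a fold enrichment of 3.63. The widest, chr7:6727392-6729094, lay inside the gene, 1325 bp from the nearest annotated start, spanned 1703 bp and had 95 fragments (76.9 to 116), a fold enrichment of 5.99 (4.85 to 7.30) and a −log10 q of 40.3. The widest lay more than 1 kb from a start and is not counted as a promoter peak. All 3 folds were below the median of promoter peaks, 8.16, although all 3 fragment counts were above their median of 51.0. The difference lay in the expected number, 14.81, 14.96 and 15.04 fragments at the 3 summits, and 99.4% of all peaks had an expected number no higher than this. The MACS2 settings given in the paper name no control, so this expected number need not be independent of the neighbouring peaks. Relative to the genome background the 3 summits stood at 17.6, 15.2 and 25.2. The remaining peak, chr7:6688842-6688987, lay downstream within 1 kb of a start of the neighbouring imprinted gene Zim1 and had 14 fragments over an expected 2.81.

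The RefSeq promoters of Plagl1 and Peg3 are shown first, since a peak overlapped each. In the RefSeq promoter table used here (GRCm38.p6, 300 bases from 250 before to 50 after the start) 8 of the 10 genes were matched, and H19 and Peg10 were not. Each sequence is the longest run without an annotated untranslated region in the 250 bases before the RefSeq start, so either end may be shortened and other annotated starts may lie inside it, as they do for both genes. Every CpG is in capitals. Plagl1 is chr10:13090582-13090787 on the plus strand, and Peg3 is chr7:6730422-6730582 on the minus strand.
Plagl1: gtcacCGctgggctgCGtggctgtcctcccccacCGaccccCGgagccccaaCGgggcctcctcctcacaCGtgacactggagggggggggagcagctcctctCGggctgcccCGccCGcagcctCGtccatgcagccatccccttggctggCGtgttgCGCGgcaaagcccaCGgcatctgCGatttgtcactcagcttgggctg
Peg3: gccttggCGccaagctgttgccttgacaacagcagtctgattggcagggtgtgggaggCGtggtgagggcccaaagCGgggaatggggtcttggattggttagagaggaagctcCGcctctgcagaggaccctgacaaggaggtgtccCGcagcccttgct
The Plagl1 stretch holds 15 CpGs in 206 bases and that of Peg3 5 in 161 bases.

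Igf2r encodes a receptor that takes up the growth factor IGF2 and is expressed from the maternal copy. Its control region lies inside the gene, at the start of the antisense lncRNA Airn, which is expressed from the paternal copy. Igf2r, which spans 87259 bp, had 14 peaks, more than the other 9 genes together, which had 7. The start of Airn was covered by a peak, chr17:12741029-12741787, in an intron of Igf2r, with 58 fragments (44.0 to 75), a fold enrichment of 9.55 (7.29 to 12.3) and a −log10 q of 37.1. No peak lay within 1 kb of the main start of Igf2r, although this start was CpG-rich, and the nearest was 11379 bp away. The 1 peak counted at an Igf2r promoter, chr17:12750913-12751050, was 113 bp from the start of an internal noncoding transcript and had 24 fragments (15.4 to 35.7) and a fold enrichment of 4.22 (2.77 to 6.20). The other gene body peaks lay in introns, with fold enrichments from 2.75 to 8.06, the highest at chr17:12754352-12755053. Upstream of the gene, 4 peaks lay 13139 to 24686 bp from its start, the strongest at chr17:12782803-12783485 with a fold enrichment of 10.0 (7.41 to 13.2). Airn runs through this stretch, and these 4 peaks lie within its annotated gene. So do the peak near the internal noncoding transcript and the intron peaks at chr17:12754352-12755053 and chr17:12758049-12758285, where the 2 genes overlap. Peaks counted for Igf2r may thus equally be placed in Airn.

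The 250 bases before the RefSeq starts of Airn, which overlapped a peak, and of Igf2r, which did not, differ in CpG content. Airn is chr17:12741061-12741310 on the plus strand and Igf2r is chr17:12769707-12769956 on the minus strand, both from RefSeq (GRCm38.p6).
Airn: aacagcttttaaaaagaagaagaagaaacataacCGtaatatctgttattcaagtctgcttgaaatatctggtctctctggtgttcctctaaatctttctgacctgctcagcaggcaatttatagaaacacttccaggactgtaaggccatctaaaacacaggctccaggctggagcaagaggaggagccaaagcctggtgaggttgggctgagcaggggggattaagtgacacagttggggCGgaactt
Igf2r: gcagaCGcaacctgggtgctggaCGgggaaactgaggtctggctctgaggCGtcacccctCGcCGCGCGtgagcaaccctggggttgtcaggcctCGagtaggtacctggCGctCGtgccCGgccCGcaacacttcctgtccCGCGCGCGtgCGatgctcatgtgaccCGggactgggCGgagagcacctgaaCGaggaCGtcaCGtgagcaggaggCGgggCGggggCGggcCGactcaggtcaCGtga
Airn had 2 CpGs and Igf2r 27 in 250 bases each. The RefSeq promoter at the upstream start of Grb10, which is not shown, also overlapped a peak and had 40 CpGs in 250 bases.

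Grb10 encodes an adaptor that dampens insulin receptor signalling and is expressed from the maternal copy in most tissues. It had 2 peaks. The peak over its CpG-rich upstream start, chr11:12037289-12037488, was weak, with 13 fragments (6.90 to 22.2), a fold enrichment of 3.68 (2.08 to 6.10) and a −log10 q of 3.61. The other, chr11:11939538-11939912, was in an intron 922 bp from the start of a short internal transcript near the 3' end and had 60 fragments (45.8 to 77.2), a fold enrichment of 13.7 (10.5 to 17.5) and a −log10 q of 49.0. Their Poisson intervals do not overlap. The CpG-rich downstream starts of Grb10, where its control region lies, had no peak, and the nearest was 10557 bp away.

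**Figure D2:**
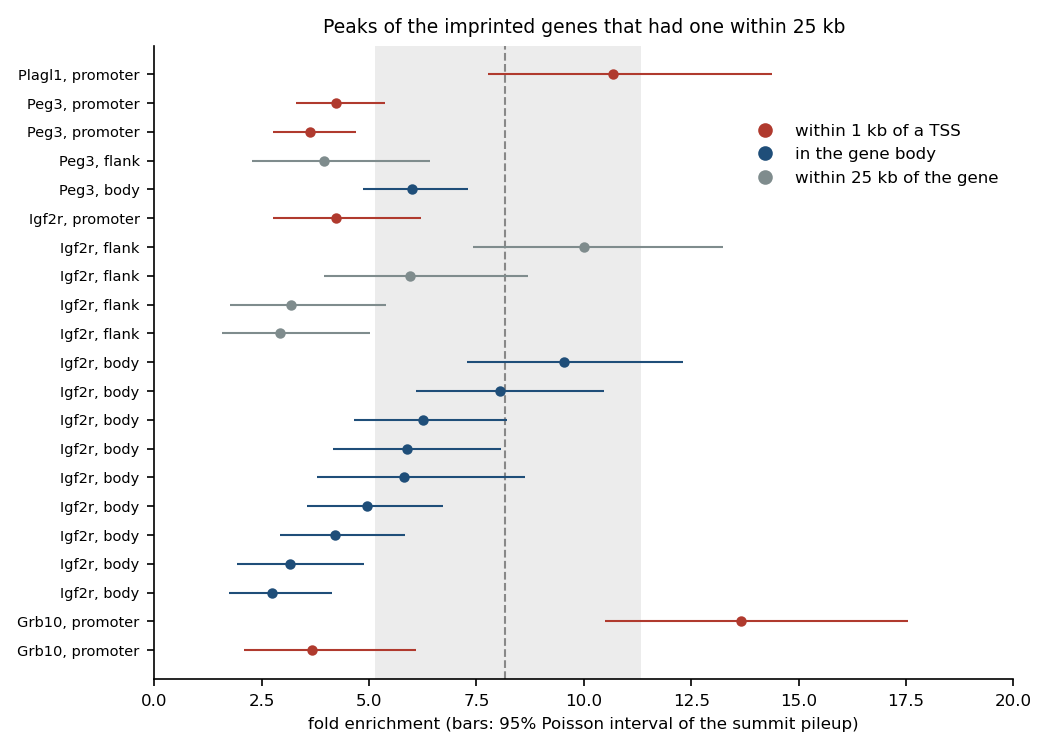
Fold enrichment of the 21 peaks of Igf2r, Peg3, Plagl1 and Grb10, with bars for the 95% Poisson interval of the fragments at the summit; the shaded band and dashed line are the quartiles and the median (8.16) of peaks within 1 kb of any TSS. Of the 6 peaks near a TSS of these genes, 4 have intervals wholly below that median.

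The other 6 genes lay in stretches without peaks. H19, a lncRNA, and Igf2, a growth factor, are neighbours with opposite imprinting that share 1 control region and enhancers. Both lay in the same peak-free stretch of 381084 bp, chr7:142538144-142919227. The nearest peak to H19 was 37386 bp downstream of it, and the nearest to Igf2 was 112623 bp away. Snrpn, which encodes a splicing protein and belongs to the cluster lost in Prader-Willi syndrome, lay in the longest stretch of the 6 genes, 1009411 bp, which began next to the peak at the Ube3a start. Its nearest peak was 98690 bp away.

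Peg10, a gene derived from a retrotransposon that is needed for the placenta, lay in a stretch of 508635 bp, with the nearest peak 145410 bp upstream. Sgce, which starts next to Peg10 on the other strand, had no peak within 25 kb either. Meg3, a lncRNA expressed from the maternal copy, lay in a stretch of 201487 bp that also held Dlk1 and Rtl1, with the nearest peak 55248 bp downstream. Mest, a hydrolase-like protein expressed from the paternal copy, lay in the shortest stretch of the 6 genes, 110907 bp, bounded by the promoter peak of Cep41 at 29613 bp and by a peak in Copg2 at 56377 bp.

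Stretches of this length are uncommon by number but hold much of the genome. Between neighbouring autosomal peaks the median distance was 12135 bp over 62151 intervals. Intervals at least as long as that of Mest made up 5.38% of them and 53.0% of the bases between peaks. For the stretch of Snrpn the shares were 0.375% and 17.5%. Among all genes 23.2% had no peak within 25 kb. A nearest peak at least as far as that of Mest was found for 21.9% of all genes, and one as far as that of Peg10 for 11.0%.

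**Figure D3:**
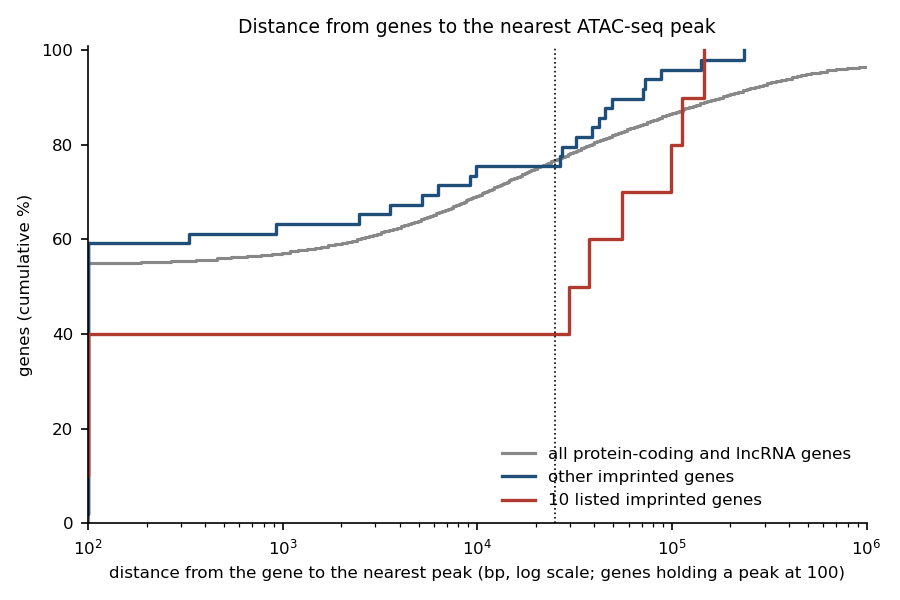
Cumulative percentage of genes by distance to the nearest peak in bp on a log scale, for all 32093 genes, 49 other imprinted genes and the 10 listed genes; genes that hold a peak are drawn at 100 bp and the dotted line marks 25 kb. At that line 4 of the 10 listed genes have a peak, against 76.8% of all genes.

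CpG-rich starts, defined here by a GC content of at least 50% and a CpG observed/expected ratio of at least 0.6 in the 500 bp to either side, are mostly accessible in this list. Of the genes with such a start, 78.9% had a peak within 1 kb of it. Among the imprinted genes 7 had a CpG-rich start and 3 of these, Peg3, Plagl1 and Grb10, had a peak there. Igf2, Igf2r, Mest and Peg10 had none. A peak in the gene or within 25 kb was present for 4 of these 7 genes, against 95.2% of all genes with a CpG-rich start. In all, the 68 annotated starts formed 41 clusters, of which 9 were CpG-rich and 3 of these had a peak.

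**Figure D4:**
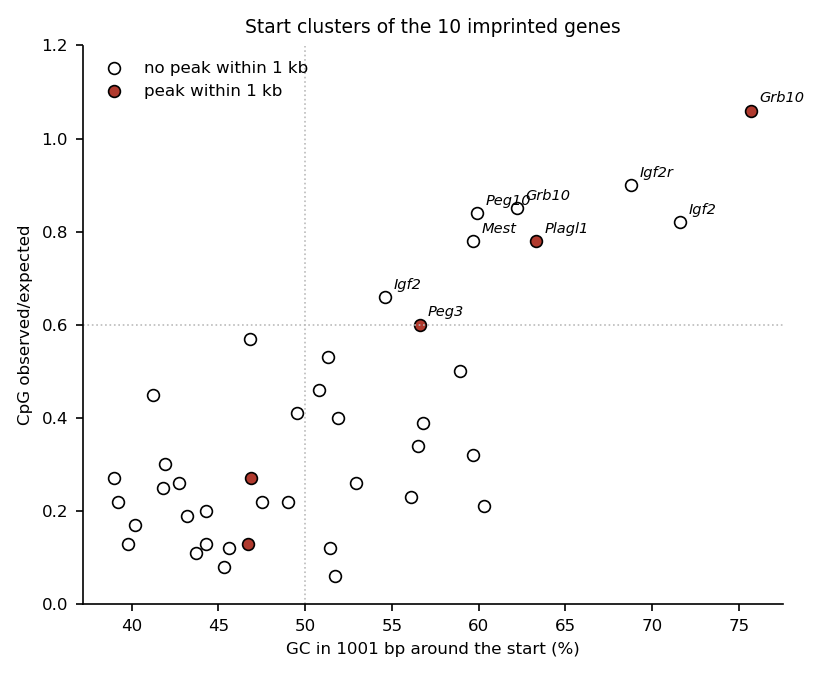
CpG observed/expected ratio against GC percentage in the 500 bp to either side of each of the 41 start clusters of the 10 genes, filled where a peak lies within 1 kb, with dotted lines at the limits of 50% and 0.6. Of the 9 clusters above both limits, which are named, 3 are filled.

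Mest has a CpG-rich promoter without a peak, and Meg3 one below the CpG limit, also without a peak. Mest is chr6:30737800-30738049 and Meg3 chr12:109540746-109540995, both on the plus strand and from RefSeq (GRCm38.p6).
Mest: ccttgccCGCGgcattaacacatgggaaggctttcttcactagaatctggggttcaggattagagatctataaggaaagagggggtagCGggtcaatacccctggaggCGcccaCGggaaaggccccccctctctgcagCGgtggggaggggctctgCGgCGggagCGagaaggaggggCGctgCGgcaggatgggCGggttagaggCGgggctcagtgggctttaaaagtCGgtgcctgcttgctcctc
Meg3: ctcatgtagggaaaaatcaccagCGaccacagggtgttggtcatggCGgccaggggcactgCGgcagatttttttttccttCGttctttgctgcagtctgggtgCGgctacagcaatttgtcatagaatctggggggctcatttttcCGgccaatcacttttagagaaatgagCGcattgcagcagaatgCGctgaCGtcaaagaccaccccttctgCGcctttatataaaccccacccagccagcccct
The Mest stretch holds 14 CpGs and that of Meg3 10, in 250 bases each.

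Control regions were placed by their known position relative to the genes. Each consisted of 1 to 11 windows, mostly 1 kb to either side of an annotated start. A peak overlapped a window of 4 of 10 regions, and single windows of all genes had one at 40.6% of their 5' ends, at 8.16% of the positions 2 to 4 kb upstream and at 12.5% of those 12 to 15 kb upstream. The 4 regions were the starts of Airn, Peg3 and Plagl1 and the downstream starts of Grb10. The Grb10 hit came from the internal transcript near the 3' end, which is not CpG-rich, and with only the CpG-rich downstream starts 3 of 10 regions had a peak. This restriction was chosen after the values were seen. No peak overlapped the region 2 to 4 kb upstream of H19, the region 12 to 15 kb upstream of Meg3, or the starts of Meg3, Mest, Snrpn and Peg10. The Meg3 locus is thus counted more than once, by its upstream region and by its start. Repeats, letters and distances are given for the window with most CpGs of each region. From these windows the nearest peak was 42000 bp (H19) to 232798 bp (Snrpn) away, and over all windows it was 28613 bp (Mest) to 144410 bp (Peg10) away. Soft-masked repeats made up 1.90% to 17.6% of these 6 windows.

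The letters of known binding motifs were searched on both strands. The ZFP57 core TGCCGC was present within 150 bp of the summit in 4 of the 21 peaks of the imprinted genes, against 7.29% of all peaks, and in 3 of the 6 near a TSS of these genes, against 19.6% of peaks within 1 kb of a TSS of any gene. The 3 near a TSS were at Peg3, with 3 copies, Plagl1 and Grb10, with 1 copy each, and the other was the widest Peg3 peak. Among control regions without a peak, 2001 bp held 12 copies at Mest, 10 at Snrpn, 5 upstream of H19, 2 at Peg10 and 1 at the Meg3 start, and 3001 bp upstream of Meg3 held 9. Among those with a peak, the region at Airn had 7 copies and those at Peg3 and Plagl1 had 6 each. The CpG-rich downstream starts of Grb10, without a peak of their own, had 4. Of 2001-bp windows at the 5' ends of all genes 37.8% had the core, and 0.957% had 5 or more copies. For windows of 3001 bp the shares were 43.2% and 1.42%. Where a control region had several windows, the one with most CpGs was used, and the core itself holds a CpG. The windows of all genes were not chosen in this way, so their shares are not a matched background. The core was present at control regions with and without a peak, and its number varied within both. Of 32851 RefSeq promoters of 300 bases, 11.6% held it.

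The YY1 core AAGATGGC was found in 2 of the 21 peaks, both at Peg3 and with 2 copies each, against 2.44% of all peaks. The AP-1 site TGACTCA was in 7 of the 21, against 33.0% of all peaks, and the Grb10 peak near the 3' end had 2 copies. A CTCF site with the letters CCGCGNGGNGGCAG, as known from the H19 control region, was in none of the 21, against 0.00788% of all peaks. Only 5 of all 63456 peaks held these letters, so their absence from the 21 says nothing about CTCF there. They occurred 3 times in the region upstream of H19, where no peak was found. As they were taken from that region, their presence in it was given in advance. Of windows of the same length at 5' ends of genes 0.112% held them, which is no background for that region.

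In a wider list of 49 other imprinted genes, 20 had a promoter peak, against 44.3% of all genes, and with only the gene's own 5' end 12 had one, against 40.6%. Of the 20, Airn, Usp29 and Zim1 had theirs from peaks already counted for Igf2r and Peg3. In the list 12 had no peak within 25 kb, against 23.2% of all genes. Of the 29 with a CpG-rich start, 12 had a peak there, against 78.9% of all genes with such a start. The 5 highest promoter peaks by −log10 q were at Trappc9 (162.2), Ube3a (77.8), Inpp5f (73.8), Gnas (70.6) and Commd1 (55.2). Trappc9 had 219 fragments (191.0 to 250.0) at a fold enrichment of 13.4. The 5 lowest were at Zim1 (4.31), Slc38a4 (4.67), Dcn (7.37), Mkrn3 (10.8) and Ppp1r9a (14.5). These genes were listed by name, and a peak at any annotated start was counted. The Gnas peak began at chr2:174327158, inside a gene that starts at chr2:174284320. Whether each gene is imprinted in these cells, or at the start with the peak, was not examined. The counts therefore do not show that imprinted promoters were open.

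The 29 without a promoter peak were Zdbf2, Ddc, Zrsr1, Dlk1, Rtl1, Rian, Mirg, Dio3, Kcnk9, Peg13, Slc22a3, Slc22a2, Nnat, Nespas, Tfpi2, Sgce, Asb4, Klf14, Nap1l5, Snurf, Ndn, Magel2, Ins2, Ascl2, Kcnq1, Cdkn1c, Slc22a18, Phlda2 and Rasgrf1. Several are neighbours of the listed genes. In the Meg3 cluster Dlk1, Rtl1, Rian and Mirg had no promoter peak, but Rian had 2 peaks in its body and Mirg 1. Imprinted genes nested in a gene with a promoter peak differed. Zrsr1 within Commd1, Nnat within Blcap and Peg13 within Trappc9 had no promoter peak, whereas Mcts2 within H13 had one, enriched 10.3-fold (−log10 q 53.3). The Blcap, H13, Mcts2, Kcnq1ot1, Tspan32 and Rian values given here were picked after they were seen. At Kcnq1ot1, the antisense lncRNA whose start is the control region of its cluster, a peak at chr7:143296248-143296955 had 47 fragments (34.5 to 62.5) and a fold enrichment of 9.57, while Cdkn1c, Phlda2 and Slc22a18 in the same cluster had no peak within 25 kb. Tspan32, also in this cluster, had a promoter peak with a fold enrichment of 6.26.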

How the data were processed

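ATAC-seq peaks of 1 parental NIH-3T3 library were used, and the other 30 samples were not analysed here. The submitters' processing notes name STAR 2.5.3a and MACS2 2.1.1.20160309. Per the paper's methods, unique paired-end reads on mm10 were kept, duplicates were removed and whole fragments were used to call peaks. The methods refer peak calling for this library to the ChIP-seq procedure, in which peaks shared with input chromatin or in ENCODE blacklisted regions were dropped, so a site may lack a peak for that reason. For each peak the authors deposited its fold enrichment, a ratio of the fragments to the local expected number. The deposited −log10 p and −log10 q are from a Poisson test at the summit. The deposited score is a rescaled −log10 q and was not used here. Coordinates are mm10, counted from 1.

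Peaks were placed on the GENCODE M21 annotation, and starts within 500 bp of each other formed a cluster. Motifs were searched 150 bp to either side of each summit. Fragments at the summits were solved from the fold enrichment and −log10 p by a procedure tested on simulated data. No test was made, as there is 1 library. Named were the 10 genes, partners in their clusters, the 5 highest and 5 lowest promoter peaks of the other imprinted genes and all of these without one. The members and lists were chosen with earlier results of these data known. Stricter limits on q (0.01 and 1e-05) and on fold enrichment (at least 5), and other distances, windows and CpG limits, were tried. Python 3.11.15 was used with matplotlib 3.10.9, SciPy 1.17.1, NumPy 2.4.6 and pandas 2.3.3.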

Additional observations from a re-analysis of the deposited data

How the results depend on the processing

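Of 50 alternatives, 42 stayed within the limit set, which was 1.5 times the reported value for a count and the exact 95% binomial interval for the share of CpG-rich starts with a peak. With peaks of a fold enrichment of at least 5, members with a promoter peak fell from 4 to 2. Among all genes the share fell from 44.3% to 39.5%. Gene body peaks of the members away from TSSs fell from 10 to 6, and all their peaks within 25 kb from 21 to 10. Of all peaks in the list, 35.7% had a fold enrichment of 4.95 or less. With only the gene's own 5' end in place of every annotated start, 1 member, 12 of the other imprinted genes and 40.6% of all genes had a promoter peak. With a stricter CpG limit (observed/expected of at least 0.75 and GC of at least 55%) the share of CpG-rich starts with a peak was 82.4% in place of 78.9%. The ZFP57 core was in 1778 peaks when searched 50 bp to either side of the summit, against 4625 with 150 bp. The count of members without a peak within 25 kb was 6 at each of the 3 stricter peak thresholds, 4 within 50 kb (17.9% of all genes) and 2 within 100 kb (13.2%), alternatives chosen after seeing the data. The cause of these differences was not tested, apart from fewer peaks, starts or bases being counted. A peak at the genome background needed 10 fragments, and peaks may have been dropped after calling, so accessibility at the genes without a peak is not measured, and the parental copies cannot be told apart.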
